A study of Mus musculus with 8 samples.

Results

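Cluster 7 was 1 of 12 groups into which the authors sorted the single cells of a white fat culture, and it is described here by the 540 genes listed for it in their table of cluster markers, out of 13337 entries for 3904 genes. The members were taken by the cluster number alone. The cells came from inguinal white fat of adult C57BL/6 mice, either wild-type (WT) or lacking both Hmgn1 and Hmgn2 (genotype Hmgn1-/- and Hmgn2-/-, called DKO), whose products are proteins that bind the nucleosomes of chromatin. Preadipocytes were grown on collagen and profiled before induction (day 0) or at day 6, after a medium with rosiglitazone, dexamethasone, IBMX, T3 and insulin and then a maintenance medium with T3 and insulin. There were 2 samples in each of the 4 groups, 8 samples in all, and the number of mice behind each culture is not given in the sources used here. The table pools the cells of all 8 samples. It therefore holds no value for a genotype or a day, no replicate stands behind any value below, and no comparison of DKO with WT was made.

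The gene Ogn encodes osteoglycin, a small leucine-rich proteoglycan that is secreted into the collagen matrix. The gene Hp encodes haptoglobin, a plasma protein that binds free haemoglobin, belongs to the acute-phase response and is also made by fat cells. White fat holds fibroblast-like progenitors that secrete matrix and signalling proteins, and those that commit to the adipocyte fate switch on lipid-handling genes such as Fabp4. The measure used is detection, the percentage of cells with the gene's RNA found, inside cluster 7 and in all other cells. The clusters were built from the expression of these same genes, so the differences describe the cluster and were not tested. The number of cells kept is not in the table, so no counting interval could be given. Detection also moves with the sequencing depth per cell, which the table does not give, and its part in these differences was not tested.

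Cluster 7 held 6.60% of all cells. Most of its listed genes were found in more of its cells than elsewhere, 452 of 540 (83.7%), and the median gene was detected in 73.4% of its cells against 56.0% of the others. A difference of at least 10 percentage points towards cluster 7 was seen for 323 genes, which is 59.8% of the genes listed, and one of at least 10 points the other way for 75 genes, or 13.9%. In the remaining 11 clusters the share of entries with 10 points more ran from 0.0% to 76.9%. Just inside the limit were Igfbp5 and Cst3 with 10 points each, and just outside it Rap1b (9.9), Crtap (9.9) and Wfdc21 (9.8). Clusters 4 and 10, with 9.59% and 3.22% of the cells, had a median detection of only 10.8% and 8.1% for their listed genes and so lowered the value of the other cells. Against the 9 clusters that remain without them, at least 192 of the 540 genes (35.6%) still had 10 points more in cluster 7. This is a lower limit, since a gene without an entry in clusters 4 or 10 was taken there as 0, and a gene that misses 10 points this way may still have them.

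**Figure D1:**
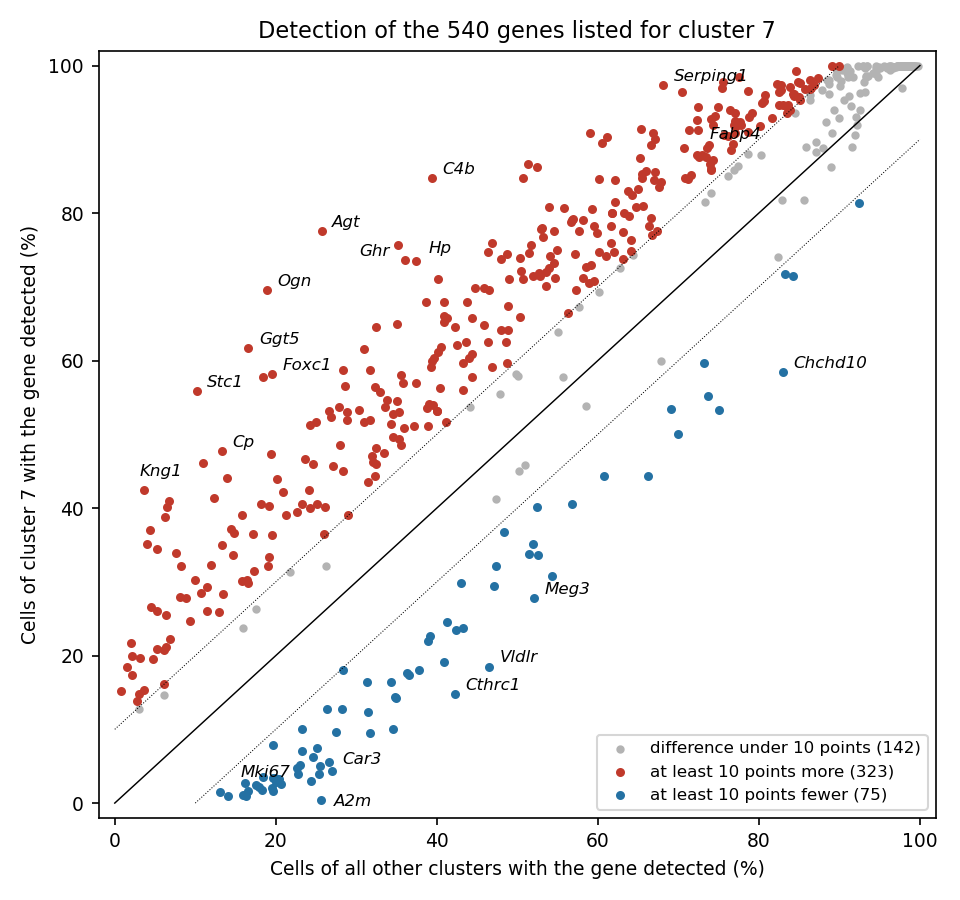
Each point is 1 of the 540 genes listed for cluster 7, with its detection in all other cells on the x axis and in cluster 7 on the y axis, both as percent of cells. The solid line marks equal detection and the dotted lines a difference of 10 points. The 323 red points lie above the upper dotted line, among them Agt, Ogn and Stc1, and the 75 blue points below the lower one, among them A2m and Car3.

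Ogn (chromosome 13, 49608046 to 49624501, plus strand, mm10, protein-coding) had a detection of 69.5% inside cluster 7, against 18.9% over the remaining cells. It had entries in 5 other clusters, and all were low. Clusters 2, 6 and 8 were at 6.6%, 5.5% and 6.7%, and clusters 4 and 11 at 0.4% and 2.2%. The 6 clusters without an entry for Ogn averaged 28.1%, as solved from the detection over all cells, and none of them can be given a value of its own. The genes whose levels were most like those of Ogn over the 6 clusters listing it were Ccl8 (Pearson's r 0.999), Pdlim2, Gpr176, Mustn1 and Dkk2 (0.996), out of 118 genes compared. These 6 points come from the same pooled cells, and cluster 7 was the 1 high point among them. Clusters 0, 1, 3, 5, 9 and 10 have no entry for Ogn and were left out. Ccl8 was higher in clusters 1 and 3, at 63.2% and 66.3%, than in cluster 7, at 51.6%. Pdlim2 was at 79.0%, 80.0% and 81.2% in clusters 0, 1 and 9, against 74.7% in cluster 7. Mustn1 was at 49.4% in cluster 1 and 52.4% in cluster 7. Dkk2 was at 22.7% to 25.1% in clusters 0, 5 and 9 and 27.8% in cluster 7. In cluster 10, Ccl8 and Gpr176 were low, at 11.3% and 5.0%.

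Hp (chromosome 8, 109575128 to 109579172, minus strand, protein-coding) reached 73.5% inside cluster 7, against 37.4% outside it. Unlike Ogn, it did not have its highest listed level there, since cluster 11 reached 90.6%. Cluster 2 was at 39.6%, cluster 4 at 37.1% and cluster 10 at 8.1%, and the clusters without an entry averaged 37.3%. By size of the difference, Ogn was the second and Hp the eleventh (rank 11) of the 540 genes. Hp had entries in 5 clusters, fewer than the 6 required to look for genes like it.

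The largest difference belonged to Agt (chromosome 8, 124556534 to 124569706, minus strand), which encodes angiotensinogen, the precursor of the blood pressure peptide angiotensin. Its detection was 77.5% inside and 25.7% outside the cluster, 51.8 points apart. Its levels split the clusters that list it. Cluster 11 (79.7%) and cluster 8 (69.5%) were near cluster 7, while clusters 0, 1 and 9 were at 10.9%, 11.4% and 19.3%. Clusters 4 and 10 were at 21.9% and 2.8%. Clusters 2, 3, 5 and 6 have no entry for Agt and averaged 31.3%. After Agt and Ogn, the third in size was Stc1 (chromosome 14, 69029238 to 69041804), the gene of the secreted glycoprotein stanniocalcin 1, with 55.9% against 10.2%. C4b, a gene of complement factor C4, followed with 84.7% against 39.4%. Ggt5, an enzyme that cleaves glutathione conjugates and leukotriene C4, stood at 61.7% against 16.6%.

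The 25 genes with the largest differences, picked for that, ranged from 51.8 down to 30.6 points. Genes listed for cluster 7 alone count as highest there by construction, since no other cluster lists them. Cluster 7 had the highest level of the clusters that list them for 22 of the 25, against 186 of all 540 genes. The exceptions were Agt and Hp, with a higher level in cluster 11, and Ccn5, with 86.3% in cluster 7 and 97.4% in cluster 1. Without clusters 4 and 10 all 25 kept a difference of at least 23.1 points. Besides secreted proteins they included the growth hormone receptor gene Ghr (73.6% against 36.1%) and Socs2, an inhibitor of cytokine signalling (61.6% against 31.0%). Also among them were Foxc1, a forkhead transcription factor (58.2% against 19.5%), the collagen VIII chain Col8a1 (57.7% against 18.4%) and the filopodial motor Myo10 (64.5% against 32.5%). Aldh1a2, which makes retinoic acid, stood at 38.8% against 6.2%, and the only other cluster with an entry, cluster 1, was at 18.8%. The other enzyme listed of the retinoid and steroid list, the oxysterol hydroxylase gene Cyp7b1, was at 58.7% against 28.4%. Rarres2, which encodes the adipokine chemerin, had 71.1% against 40.2%. The kinase gene Mark1 (75.7% against 35.2%), the schlafen gene Slfn5 (86.6% against 51.3%) and the neighbouring membrane protein genes Tmem176a (84.8% against 50.7%) and Tmem176b (90.8% against 59.0%) completed the widely detected ones.

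**Figure D2:**
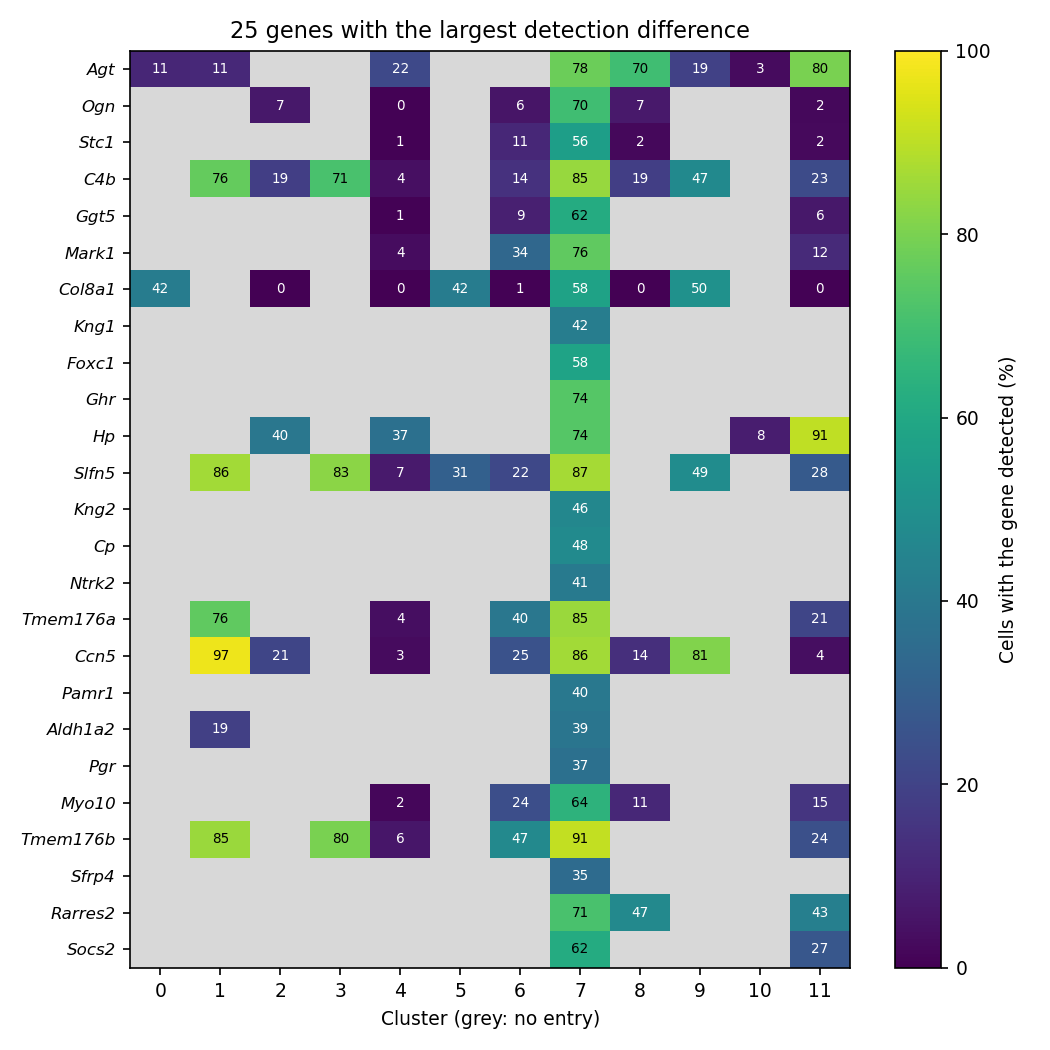
Detection (percent of cells, colour and number) of the 25 genes with the largest difference between cluster 7 and all other cells, in each of the 12 clusters, with grey where a gene has no entry. Column 7 is filled from top to bottom, 9 genes have an entry in that column alone, and Agt, Hp and Ccn5 reach a higher value elsewhere.

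Of the 540 genes, 65 (12%) had an entry in cluster 7 and in no other cluster. This share was between 1.0% and 9.5% in the other clusters except cluster 11, where it was 23.0%. Their detection was moderate, with a median of 33.9% in cluster 7 against 13% elsewhere, and 13 of the 65 were found in at least 50% of its cells. For 59 of them cluster 7 had 10 points more, beside 59.8% of all listed genes. This held for at least 51 against the 9 clusters. These genes passed the authors' minimums in cluster 7 only, so a difference from the other cells was built into how they were picked. The largest differences among the 65 were those of Kng1, Foxc1 and Ghr. The kininogen genes Kng1 (chromosome 16, 23057865 to 23082078) and Kng2, the precursors of bradykinin, stood at 42.4% and 46.1% against 3.6% and 10.9%. These genes lie close together and resemble each other, so reads may have been split between them. The copper-carrying ferroxidase Cp, ceruloplasmin, was at 47.7% against 13.3%.

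Others listed for cluster 7 alone were the gene of the neurotrophin receptor TrkB, Ntrk2 (40.9% against 6.7%), and the progesterone receptor gene Pgr (37.0% against 4.4%). The secreted Wnt inhibitor Sfrp4 was at 35.1% against 4.0%, the secreted protein gene Pamr1 at 40.1% against 6.5% and the actin regulator Mtss1 at 34.5% against 5.3%. Only 1 of the 65, Slit2, a guidance cue, had at least 10 points fewer, with 23.8% in cluster 7 and 43.3% in the other cells. An absent entry elsewhere says that the gene missed a minimum of the authors' comparison there, not that it was off.

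Gene lists were then laid over the cluster, 41 in all, of which 25 had at least 3 members listed. The median difference over all 540 genes was 12.9 points. The complement list stood highest. All 4 of its listed genes had 10 points more, with a median of 27.6 points, and all 4 kept this against the 9 clusters. Among all 540 genes, 323 had 10 points more, and at least 192 against the 9 clusters. Beside C4b they included Serping1, the C1 inhibitor (97.4% against 68.1%), and the protease C1s1 (73.8% against 48.0%). Cluster 7 was the highest for C4b only. Serping1 and C1s1 were higher in cluster 1 (99.1% and 75.1%).

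The acute-phase list parted. Of its 7 listed genes, 3 had 10 points more (Hp, Cp and Lbp, the lipopolysaccharide-binding protein, at 58.7% against 31.7%) and 2 had 10 points fewer, with a median of 9.6. Over all listed genes, 59.8% had 10 points more and 13.9% had 10 points fewer. The protease inhibitor A2m was almost undetected in cluster 7, at 0.4% against 25.6%, and so was Serpina3m, at 1.5% against 13.1%. Serpina3n was close to the other cells, with 57.8% against 55.7%, and lay between clusters 0 (30.7%) and 2 (91.3%). Saa3, a serum amyloid gene, was at 53.7% against 44.1%. The serpin and amyloid genes have near-identical copies, so their values are uncertain in this respect.

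**Figure D3:**
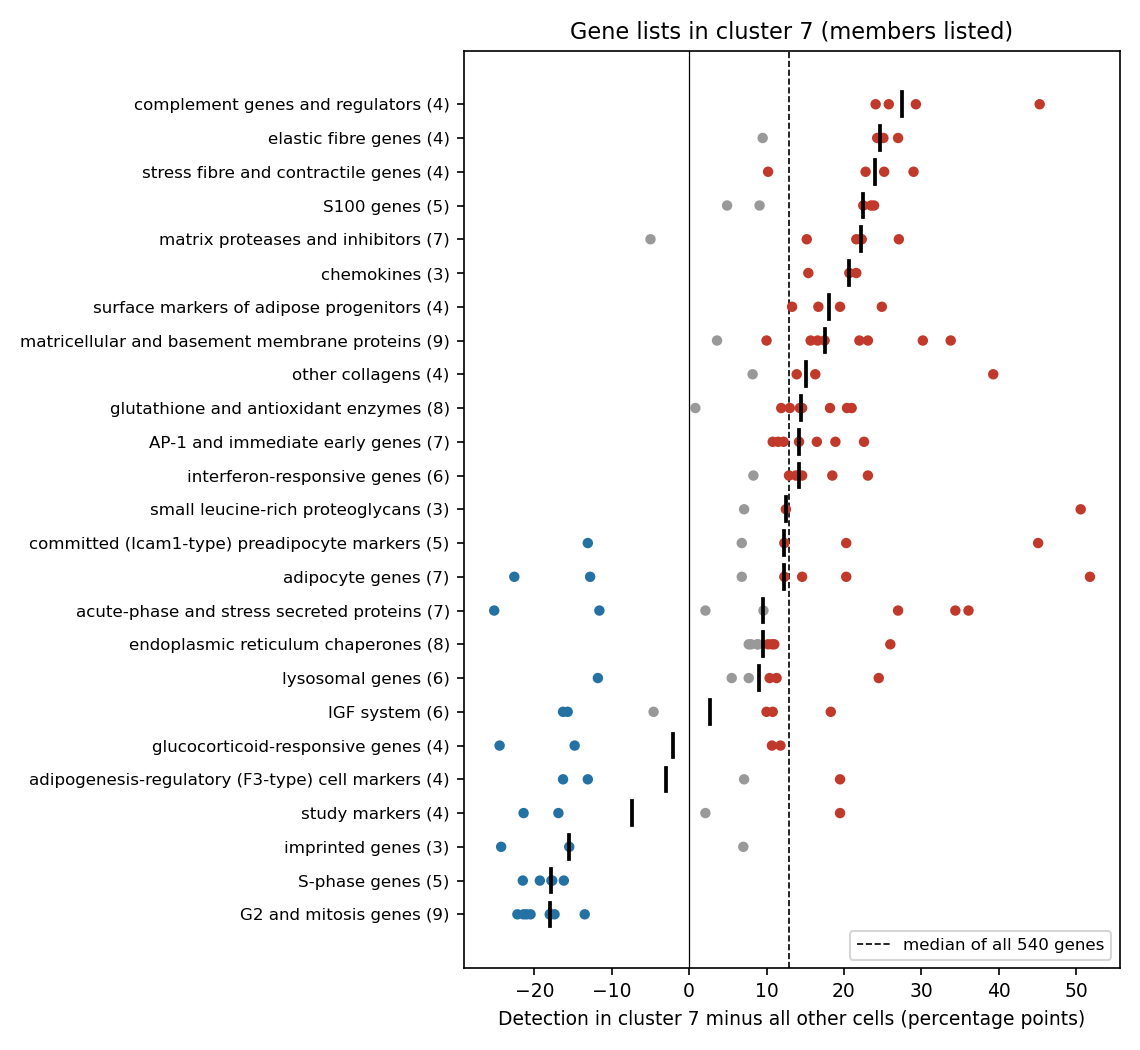
Difference of detection between cluster 7 and all other cells, in percentage points, for each gene (point) of the 25 lists with at least 3 members listed. Red points have at least 10 points more and blue points at least 10 fewer, the short black lines are list medians, and the dashed line is the median of all 540 genes, 12.9. Complement genes lie to the right of it, and the S-phase and mitosis genes lie between -22.2 and -13.5.

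Matrix genes are read against the 59.8% of all listed genes that had 10 points more, and the 35.6% against the 9 clusters. Of the 9 matricellular and basement membrane genes listed, 8 had 10 points more (median 17.5), against the 9 clusters at least 5. Ccn5, a member of the CCN family, led with 86.3% against 52.5%, and Spon1, spondin 1, was at 44.1% against 13.9%. Only 1 of the 9 had its highest listed level in cluster 7, and Ccn5 was at 97.4% in cluster 1. Of 7 matrix proteases and inhibitors, 6 had 10 points more (median 22.2), at least 5 of them against the 9 clusters. Among them were the secreted serine protease Htra1 (68.0% against 40.9%), the aggrecanase Adamts5 (79.2% against 56.9%) and the inhibitor Timp2 (97.7% against 75.5%). None of the 7 had its highest listed level in cluster 7. Adamts5 and Timp2 were at 92.9% and 99.5% in cluster 1, and Htra1 at 68.2% in cluster 5. The inhibitor Timp3 was at 45.9% against 50.9%.

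For 3 of 4 elastic fibre genes the difference was over 10 points, which held against the 9 clusters too. They were the fibrillin Fbn2 (51.2% against 24.2%), Emilin1 (66.0% against 40.9%) and Mfap2 (65.2% against 40.9%). All 4, with Efemp1 (31.3% against 21.8%), had their highest listed level in cluster 7, though Mfap2 was at 64.6% in clusters 1 and 3. Fbn2 and Emilin1 had other entries only in clusters 4 and 11. The clusters without an entry averaged 27.2% for Fbn2, 45.7% for Emilin1 and 24.3% for Efemp1, and none of them has a value of its own. Among the proteoglycans 3 were listed, Ogn, Dcn, decorin (97.6% against 85.1%), and Bgn, biglycan (100% against 92.9%). The last 2 were found in nearly all cells, where detection has little room to differ. The median of the 3 was 12.5, and against the 9 clusters at least Ogn had 10 points more. Of 4 listed collagens outside the fibrillar list, Col8a1 was followed by Col6a2 (84.2% against 67.9%), Col6a1 (96.4% against 82.5%) and Col12a1 (81.5% against 73.3%). The 1 fibrillar collagen listed, Col5a3, was detected in fewer cells, 22.0% against 38.9%, and reached 89.4% in cluster 8.

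Contractile genes had 10 points more for 4 of 4 listed (median 24, against the 9 clusters 3 of 4), with Tagln at 89.5% against 60.5% and the myosin light chain Myl9 at 69.9% against 44.7%. Neither was highest here. In clusters 0, 5 and 9 Tagln reached 97.7%, 98.4% and 97.8%, and in clusters 2, 8 and 11 it was at 13.8%, 5.8% and 4.9%. All 3 listed genes of the chemokine list had 10 points more, beside 59.8% of all listed genes, and kept this against the 9 clusters. Cxcl12, which retains blood stem cells, was at 97.0% against 75.4%, the monocyte attractant Ccl8 at 51.6% against 30.9% and the eosinophil attractant Ccl11 at 24.7% against 9.3%. Ccl8 was higher in clusters 1 and 3, at 63.2% and 66.3%, where Cxcl12 was at 98.6% and 95.4%. A further chemokine gene, Ccl9, was not on the list and was noticed after its values were seen, at 14.6% against 6.1%. Of the 5 S100 calcium-binding genes, 3 had 10 points more (median 22.5), S100a13, S100a16 and S100a1, and all 3 kept it against the 9 clusters. As a count, 3 of 5 is close to the 59.8% of all listed genes. Both annexins listed did, Anxa6 (74.4% against 48.7%) and Anxa1 (89.2% against 73.8%), of which Anxa6 kept it.

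The position of cluster 7 between progenitor and adipocyte genes was read gene by gene. Fabp4, a fatty acid carrier, was detected in 92.6% of its cells. Levels were 52.6% to 59.9% in clusters 0, 1, 3 and 5, 67.7% in cluster 9 and 19.7% in cluster 10. Clusters 2, 6, 8 and 11 had 99.6% or more, and cluster 4, low for most of its listed genes, had 98.5%. The lipase Lpl, at 98.5%, did not set cluster 7 apart, with 98.5% in cluster 3 and 93.1% in cluster 1. The microsomal enzyme Mgst1 was at 95.2% against 80.6%. In contrast, Car3, a carbonic anhydrase of fat cells, was at 4.4%, near the 0.6% to 2.1% of clusters 0, 1, 3, 5 and 9 and far from the 94.6% of cluster 11. Fabp5 was at 71.4% against 84.2%. Of 7 adipocyte genes listed, 4 thus had 10 points more (Agt, Fabp4, Mgst1 and Apoe) and 2 had 10 fewer, with a median of 12.3. A count of 4 of 7 is close to the share over all listed genes, 59.8%, and says nothing about the list. Against the 9 clusters only Agt and Fabp4 kept 10 points more. No thermogenic gene of the 13 looked up had an entry for cluster 7, and only 4 had one in any cluster.

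Of the surface markers of adipose progenitors, 4 of 4 listed had 10 points more (median 18.1, against the 9 clusters at least 2), beside 59.8% of all listed genes. These were Cd9 (77.8% against 52.9%), the tissue factor gene F3 (94.4% against 74.9%), the PDGF receptor Pdgfra (80.0% against 63.3%) and Cd81 (97.1% against 83.8%). Cd9 and F3 were higher in cluster 1 (87.4% and 99.1%) and in cluster 3 (80.2% and 96.4%). Pdgfra was at 79.5% in cluster 2 and Cd81 at 97.1% in cluster 0. Of 5 listed markers of committed preadipocytes, 3 had 10 points more (Ggt5, Fabp4 and Apoe) and Gdf10 had fewer, at 29.9% against 43.0% (median 12.3, against the 9 clusters 2 with 10 points more), and 3 of 5 is close to the share over all listed genes. The markers of F3-type regulatory cells were mixed, with F3 at 10 points more, Gdf10 and Igfbp3 at 10 fewer and Bgn between (median -3.0). Only Efemp1 was listed of the 14 markers of Dpp4-type progenitors. The insulin-like growth factor genes parted as well, with a median of 2.7 over 6 genes. Igf1 (52.8% against 34.5%), Igfbp7 and Igfbp5 had 10 points more, and Igfbp3 (40.5% against 56.8%) and Igfbp4 (53.4% against 69.1%) had fewer. Against the 9 clusters at least Igf1 had 10 points more.

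**Figure D4:**
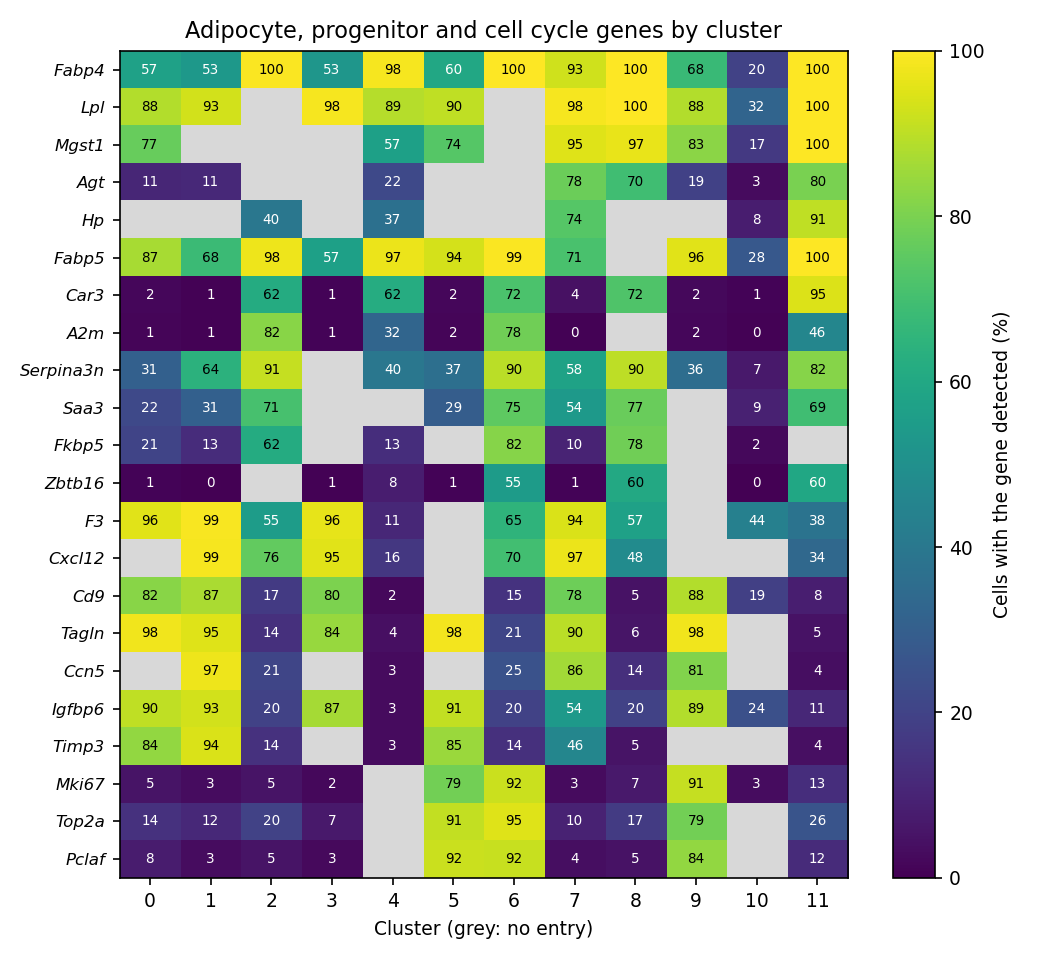
Detection (percent of cells, colour and number) of adipocyte, acute-phase, progenitor, contractile and cell cycle genes by cluster, with grey where a gene has no entry. In column 7, Fabp4 (92.6%) and Agt (77.5%) are high as in clusters 8 and 11, F3 (94.4%) and Tagln (89.5%) are high as in clusters 0 and 3, and Car3, A2m and Mki67 are below 5%.

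Cell cycle genes made up much of what was detected in fewer cells. All 9 listed genes of G2 and mitosis had at least 10 points fewer (median -18.0), and so had all 5 listed S-phase genes (median -17.8). Over all listed genes this share was 13.9%. The proliferation marker Mki67 was at 3.0% against 24.4%, the topoisomerase Top2a at 9.5% against 31.7% and the replication factor Pclaf at 3.9% against 25.4%. These values were near those of clusters 1 and 3, where Mki67 was at 3.2% and 2.3%, while clusters 5, 6 and 9 held it in 78.6%, 92.0% and 91.2% of their cells. Of the 75 genes with 10 points fewer, 41 had their highest listed level in cluster 5, 6 or 9 and 26 in cluster 2, 8 or 11. The same counts were not made over all listed genes.

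The 10 largest differences of this kind were led by the lipoprotein receptor Vldlr (18.5% against 46.5%), the secreted protein gene Cthrc1 (14.8% against 42.2%) and A2m. They further held the mitochondrial protein gene Chchd10 (58.4% against 83.0%), the scaffold gene Mpp6 (30.8% against 54.3%), Nop56, which serves ribosome assembly (44.3% against 66.2%), Car3 and Top2a. Fkbp5, a chaperone of the glucocorticoid receptor and a known target of it, was at 10.1% against 34.6%, with 61.7% in cluster 2, 82.0% in cluster 6 and 78.4% in cluster 8. Zbtb16, also a target, was at 1.1% against 15.9%. Klf9 (85.9% against 74.1%) and Errfi1 (73.8% against 63.1%) of the same list had 10 points more, which left the 4 listed genes with a median of -2.1. Against the 9 clusters Errfi1 had 4.5 points more and Klf9 at least 0.3. The imprinted long non-coding RNA Meg3 was at 27.8% against 52.1%, and Rian from the same locus at 12.7% against 28.2%. The metallothioneins Mt1 and Mt2 were at 96.9% and 81.3% against 97.8% and 92.4%.

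For some lists the count of members with 10 points more was much lower as the minimum that can be given against the 9 clusters. Among all 540 listed genes it was 323, and at least 192 against the 9 clusters. All 7 immediate early genes listed had 10 points more (median 14.2), among them Fos (89.2% against 66.6%) and Fosb (62.5% against 43.6%). At least 2 of the 7 had it against the 9 clusters. For interferon-responsive genes it was 5 of 6 (median 14.2), and at least 1 against the 9 clusters. For antioxidant enzymes it was 7 of 8 (median 14.4) and then at least 2, among them the plasma glutathione peroxidase Gpx3 (98.5% against 77.5%). Lysosomal genes went from 3 of 6 (median 9.0) to at least 1, and endoplasmic reticulum chaperones from 4 of 8 (median 9.5) to at least 1. Both first counts are below the share over all listed genes, 59.8%. The 4 collagens outside the fibrillar list went from 3 (median 15.1) to at least 1. Apart from these lists, 52 genes were detected in at least 95% of cells both inside and outside the cluster, 44 of them ribosomal protein genes or Rack1, and detection cannot place them. No mitochondrially encoded transcript was listed.

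Set directly against each other cluster, over the genes listed for both, cluster 7 was nearest to clusters 3 and 1. Against cluster 3 the median absolute difference of level was 2.2 points over 160 genes, with 12.5% of genes at least 10 points higher in cluster 7 and 4.38% lower. Against cluster 1 it was 2.7 points over 212 genes, with 8.96% higher and 9.43% lower. Cluster 11 differed by 20.7 points over 366 genes, cluster 8 by 17.5 over 287 and cluster 6 by 16.1 over 304. Only genes that stood out in both clusters enter these values, so they leave out genes such as Kng1. Igfbp6 and Timp3 show where clusters 7 and 1 parted, with 53.9% and 45.9% in cluster 7 against 93.1% and 94.3% in cluster 1.

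**Figure D5:**
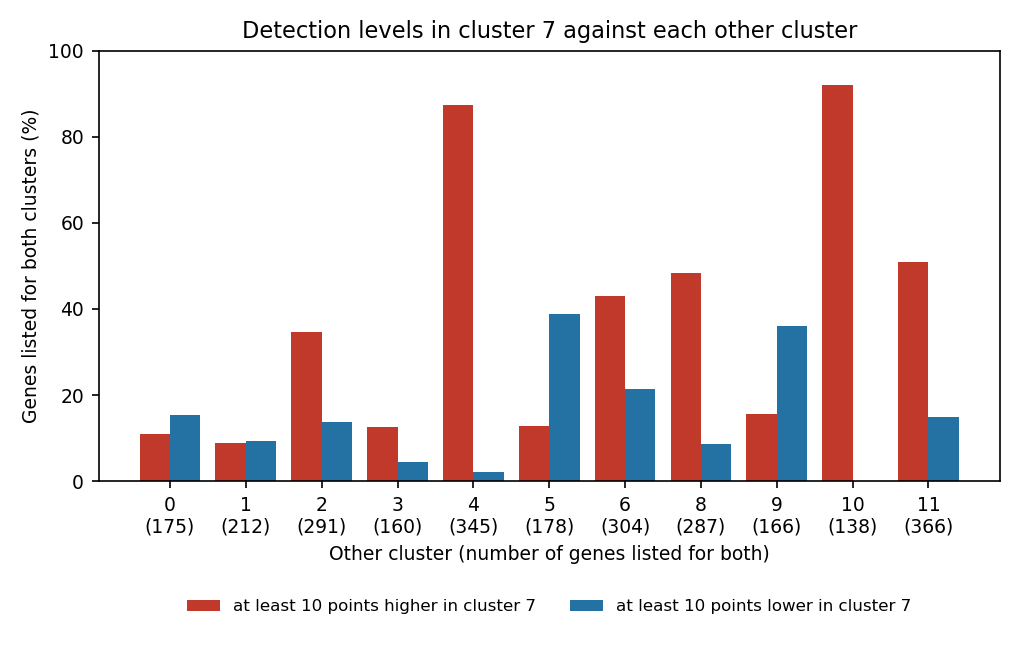
For each other cluster, the percentage of the genes listed for both clusters (their number in parentheses) whose detection was at least 10 points higher (red) or lower (blue) in cluster 7. Clusters 0, 1 and 3 have low bars on both sides, with 12.5% and 4.38% for cluster 3, while clusters 4 and 10 reach 87.5% and 92.0% on the red side.

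Genes that mark other cell types gave few entries. None of the immune, endothelial, mesothelial or tendon and chondrogenic markers was listed for cluster 7, but in the whole table too only 0 of 14, 1 of 10, 1 of 11 and 2 of 11 had an entry, so their absence says little. Of the 8 glial markers 1 was listed, the neurotrophin receptor Ngfr (21.7% against 2.0%), and of the 10 pericyte and smooth muscle markers also 1, the channel subunit gene Abcc9 (21.1% against 6.4%). Both were listed for cluster 7 alone, and the part of such cells in the cluster was not tested. The label by Ogn and Hp holds in that both were detected in most cells of the cluster, but Agt had the larger difference and Hp a higher level in cluster 11. Among the 10 population markers named by the study, 4 were listed, F3, Serpina3n, Col5a3 and Mki67, with the values above. The knocked-out genes Hmgn1 and Hmgn2 had no entry for cluster 7, and of their family only Hmgn3 had one, at 60.3% against 44.0%.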

How the data were processed

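Single-cell RNA was measured in 8 cultures, captured in separate lanes with a 3′ chemistry. According to the methods, reads were mapped by the authors to mm10 (Cell Ranger 6.0.0, also in the submitters' processing notes), depth was equalised between lanes, cells were filtered and log-normalised in Seurat, and clustering was repeated once endothelial, glial and immune cells had been taken out. No removal of doublets is described. The authors deposited, for each cluster and gene, a fraction of cells detecting the gene inside the cluster and another for the cells outside it, and these fractions were multiplied by 100 here. Entries are limited to genes that passed the authors' minimums, and the larger fraction was never under 10.1%. The deposited table also holds the authors' log2 fold changes and p-values of each cluster against the rest, which are their own comparison and were not used, so a change of mean level without a change of detection is not seen here. The table gives neither the depth nor the number of cells kept, for which the methods state only targets.

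With Python 3.11.15, numpy 2.4.6, pandas 2.3.3 and matplotlib 3.10.9, cluster shares were solved by least squares from the 10 genes listed for every cluster, since detection over all cells must be equal from each cluster, and it was so within 0.2 points for 2692 of 2692 genes listed at least in 2 clusters. The solver was checked on simulated data. From the shares came the mean detection in clusters without an entry and in the 9 clusters other than 4, 7 and 10. In cluster 7, 3 symbols that had become dates were restored. Positions were taken from GENCODE vM21 (GRCm38, the assembly of mm10) for 539 of the 540 genes.

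Genes named are Ogn and Hp, the 25 and 10 largest differences in each direction, the 10 largest among genes listed for cluster 7 alone, list members and the knocked-out genes. Others are named as examples. The members and lists were chosen with earlier results of these data known. No test was possible without values per sample.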

Additional observations from a re-analysis of the deposited data

How the results depend on the processing

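No paired analysis was possible because each value used was taken over the cells of all 8 samples, and likewise no replicate could be left out. The share of cluster 7 remained 6.60% from genes listed in at least 2 or at least 8 clusters. Genes with more detection in cluster 7 numbered 323 at 10 points, 121 at 20 points and, without clusters 4 and 10, at least 192, the last setting having been added after the data were seen. Genes with less detection numbered 75 at 10 points and 18 at 20 points. A higher minimum keeps fewer genes by construction. Minimums of 5 points, an odds ratio of 2 (fractions limited to 0.1% from either end) and a detection minimum of 25% moved neither count by over 1.5 times. The genes listed for cluster 7 alone and those with their highest listed level in it (186) also stayed within 1.5 times. The latter numbered 183 when the clusters without an entry had to be lower too. The number of lists with a larger share of members at 10 points more than all 540 genes, 14 of 25, likewise stayed within 1.5 times. An overlap with the lists of other clusters had been planned and is not given, since these comparisons share cells.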

Other observations

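Further groups of genes, put together only after their values had been seen, are given as values alone. Of 27 hormone, growth factor and cytokine receptors looked up, 12 were listed for cluster 7, 11 with at least 10 points more detection, and for 9 of the 12 the cluster held the highest listed level. Over all listed genes these were 323 and 186 of 540. Of the 12 receptors, 5 were listed for cluster 7 alone and count as highest there by construction. Besides Ghr, Ntrk2, Pgr and Ngfr the 9 included the interleukin 4 receptor Il4ra (76.0% against 46.9% of all other cells), the vasopressin receptor Avpr1a (48.6% against 28.0%) and the parathyroid hormone receptor Pth1r (36.5% against 17.2%). The 1 receptor with 10 points fewer was Vldlr. Against the 9 clusters without 4 and 10, at least 7 of the 12 had 10 points more.

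Of 13 genes of cyclic GMP signalling, 5 were listed, all with at least 10 points more, also against the 9 clusters. Of these 5, 4 were listed for cluster 7 alone. Over all listed genes, 323 of 540 had 10 points more, and at least 192 against the 9 clusters. Both subunits of soluble guanylate cyclase were detected in few cells, Gucy1a1 in 18.5% against 1.5% and Gucy1b1 in 19.7% against 3.1%. The kinase Prkg1 was at 39.1% against 15.8%, and the phosphodiesterases Pde1a and Pde3a at 40.5% and 31.4% against 18.2% and 17.3%. Of 22 Wnt and BMP regulators, 11 were listed and 8 had 10 points more, at least 5 of them against the 9 clusters. The Wnt agonist Rspo2, listed for cluster 7 alone, was found in 15.2% of its cells and in 0.8% of the others. Dkk2, a Wnt inhibitor, was at 27.8%, close to the 22.7% to 25.1% of clusters 0, 5 and 9.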
